A study of Mus musculus with 8 samples.

Results

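Hgsnat, Peak1, Gsdma, Ubr4 and Hap1 are 5 of the 17362 genes measured by single nucleus RNA-seq (snRNA-seq) in cultured mouse islets. They were chosen by their level in wild type (WT) beta cells after forskolin (FSK): Hgsnat, Peak1 and Gsdma for a large FSK response, and Ubr4 and Hap1 because they were higher after both FSK and Exendin-4 (Ex-4). These WT beta cell contrasts are therefore descriptions. The Med14 S983A columns and the columns of other cell types address whether the same genes responded when Med14 could not be phosphorylated at S983, and outside beta cells.

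Islets came from WT mice and from mice with a whole-body knock-in of Med14 S983A, in which a serine of a Mediator subunit is replaced by alanine. After overnight culture, islets of both genotypes stayed untreated (CON) or were treated for 16 h with FSK or with 10 nM Ex-4. The FSK dose in islets, the age of the mice and the number of animals per pool are not given in the sources used here. Nuclei were sorted on DAPI, so the values are of nuclear RNA. The table holds 1 pooled value for each of 6 conditions in each of 9 annotated cell types, 54 columns in all, with no replicates. No test between conditions was possible, condition cannot be told apart from islet preparation, and the intervals given are 95% and cover counting error only.

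FSK activates adenylyl cyclase, and Ex-4 activates the GLP-1 receptor, which raises cAMP in beta cells through a G protein. cAMP releases the catalytic subunit of PKA, which phosphorylates the transcription factor CREB and other proteins, and Mediator relays signals from such factors to RNA polymerase II. The 5 genes have unrelated roles. Hgsnat is the lysosomal membrane enzyme that acetylates heparan sulfate during its breakdown. Gsdma is a gasdermin, a family of proteins that form membrane pores once cleaved. Peak1 is a pseudokinase scaffold linked to the actin cytoskeleton and focal adhesions, Ubr4 is a very large ubiquitin ligase of the N-degron pathway, and Hap1 is the huntingtin-associated adaptor of vesicle transport.

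The deposited values were turned back into counts per 10000 counts of a column (CP10K). Beta cell columns were the deepest, with totals from 1915006 to 3094377 counts. Totals were 269394 to 810127 in alpha cells, 362410 to 631433 in delta cells and 38625 to 127727 in PP cells, and the 5 remaining types (endothelial, macrophage, ductal, muscle and neuron) went as low as 1522. Of 12 beta cell markers, 11 were highest in the beta columns, the exception being Slc30a8, which was higher in alpha cells. Only 1 of 5 measured markers was highest in the nuclei annotated as neurons. Genes linked to ribosomal RNA and mitochondrial genes took 11.9% of the counts in Med14 S983A CON beta cells and 2.76% after FSK, against 3.46% and 2.81% in WT.

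Positions are those of GRCm39. Hgsnat is at chr8:26431351-26466798 on the minus strand, Peak1 at chr9:56108410-56325566 on the minus strand, Ubr4 at chr4:139079920-139216899 on the plus strand, Gsdma at chr11:98555177-98568534 on the plus strand and Hap1 at chr11:100238152-100246978 on the minus strand. Peak1 spans 217157 bases and 5.13% of it is exonic in its canonical transcript. It contains 5 other annotated genes, none of them in the table, including Peak1os on the opposite strand. Ubr4 overlaps Emc1, on the same strand, over 26122 bases, all of them before the canonical Ubr4 start at 139107913. Strand could not tell reads of this pair apart. No source used here says if reads were counted by strand, so those of overlapping genes on opposite strands may not be told apart either.

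Because CREB binds the cAMP response element, the 250 bases before each canonical transcript start were searched on both strands for the full element TGACGTCA and for its half-site TGACG or CGTCA, which the full element contains. None of the 5 windows held the full element, which was present in 1.90% of 16530 windows of the same length from genes of the table. Peak1, Ubr4 and Hap1 held 1 half-site each, at 167 to 163, 10 to 6 and 81 to 77 bases before the start, and 21.4% of all windows held at least 1. The stretches that carry these letters are shown with the half-site in capitals, at chr9:56325649-56325673 (minus strand), chr4:139107893-139107912 (plus strand) and chr11:100247045-100247069 (minus strand).
Peak1: ccaaattcccCGTCAcatggactca
Ubr4: gcgcgctgtcTGACGcgcac
Hap1: cttcctatctCGTCAccactggctg

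Hgsnat and Gsdma, which responded in beta cells of both genotypes, held neither the full element nor a half-site. Their windows are shown because these are the 2 genes with the largest Med14 S983A ratios and no such letters: chr8:26466799-26467031 (minus strand, 233 bases, without the part inside an exon) and chr11:98554927-98555176 (plus strand, 250 bases). The absence of these letters says nothing of enhancers or of sites outside the window.
Hgsnat: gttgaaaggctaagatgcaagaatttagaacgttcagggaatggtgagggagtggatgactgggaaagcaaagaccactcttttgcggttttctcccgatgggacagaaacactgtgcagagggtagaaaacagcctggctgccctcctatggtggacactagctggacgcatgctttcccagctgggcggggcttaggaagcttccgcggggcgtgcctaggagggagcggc
Gsdma: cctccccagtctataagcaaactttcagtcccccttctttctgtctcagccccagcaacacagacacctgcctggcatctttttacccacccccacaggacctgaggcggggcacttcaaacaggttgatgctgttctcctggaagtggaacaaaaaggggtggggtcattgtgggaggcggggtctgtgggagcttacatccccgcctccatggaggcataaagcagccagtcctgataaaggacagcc

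Gsdma reached closely similar levels after FSK in beta cells of both genotypes. In WT beta cells it was 0.0996 CP10K in CON (30 counts), 0.278 after Ex-4 (83 counts) and 3.47 after FSK (1075 counts). In Med14 S983A beta cells it was 0.197 in CON (38 counts), 0.209 after Ex-4 (40 counts) and 3.48 after FSK (802 counts). The FSK columns stood far above the other 4, and the level after FSK in Med14 S983A was 1.00 times that in WT (0.913 to 1.10). FSK against CON was 34.9-fold in WT (24.3 to 52.0) and 17.6-fold in Med14 S983A (12.7 to 25.1), with intervals that overlap. Med14 S983A CON was 1.98 times WT CON (1.20 to 3.31), at low counts.

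Hgsnat was also higher after FSK in both genotypes, but less so in Med14 S983A. The WT levels in beta cells were 0.362 CP10K in CON (109 counts), 0.537 after Ex-4 (160 counts) and 4.75 after FSK (1469 counts). The Med14 S983A levels were 0.509 in CON (98 counts), 0.554 after Ex-4 (106 counts) and 2.64 after FSK (608 counts). After FSK, Med14 S983A beta cells held 0.556 times the WT level (0.505 to 0.612). The FSK response was 13.1-fold in WT (10.8 to 16.1) and 5.19-fold in Med14 S983A (4.18 to 6.49), and these intervals do not overlap.

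Peak1 went in opposite directions in the 2 genotypes. WT beta cells held 0.508 CP10K in CON (153 counts), 0.570 after Ex-4 (170 counts) and 5.17 after FSK (1601 counts). Med14 S983A beta cells held 0.649 in CON (125 counts), 0.491 after Ex-4 (94 counts) and 0.252 after FSK (58 counts). The WT FSK column was therefore the only high one, and the Med14 S983A FSK column was the lowest of the 6. FSK against CON was 10.2-fold in WT (8.63 to 12.1) and 0.388-fold in Med14 S983A (0.279 to 0.534), so that the level after FSK in Med14 S983A was 0.049 times that in WT (0.037 to 0.063).

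Ubr4 was higher after FSK in both genotypes, from different starting levels. In WT beta cells it was 11.3 CP10K in CON (3417 counts), 19.5 after Ex-4 (5809 counts) and 41.2 after FSK (12758 counts). Med14 S983A beta cells gave 20.2 in CON (3882 counts), 20.8 after Ex-4 (3990 counts) and 31.7 after FSK (7308 counts). WT CON was the lowest column, and Med14 S983A CON, Med14 S983A Ex-4 and WT Ex-4 lay within 19.5 to 20.8. The fold after FSK was 3.63 in WT (3.5 to 3.78) and 1.57 in Med14 S983A (1.51 to 1.64). Measured against Ex-4 in place of CON, FSK was 2.12-fold in WT (2.05 to 2.18) and 1.52-fold in Med14 S983A (1.46 to 1.58).

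For Hap1 the genotypes differed most in the untreated columns. In WT beta cells it was 3.47 CP10K in CON (1044 counts), 7.12 after Ex-4 (2124 counts) and 6.04 after FSK (1868 counts). In Med14 S983A beta cells it was 9.71 in CON (1869 counts), 7.97 after Ex-4 (1527 counts) and 6.26 after FSK (1441 counts). After FSK the genotypes differed by a ratio of 1.04 (0.967 to 1.11), whereas in CON Med14 S983A was 2.80 times WT (2.6 to 3.02). FSK against CON was 1.74-fold in WT (1.61 to 1.88) and 0.644-fold in Med14 S983A (0.601 to 0.691). Against Ex-4, FSK was lower in both genotypes, 0.847-fold in WT (0.796 to 0.902) and 0.785-fold in Med14 S983A (0.730 to 0.844).

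**Figure D1:**
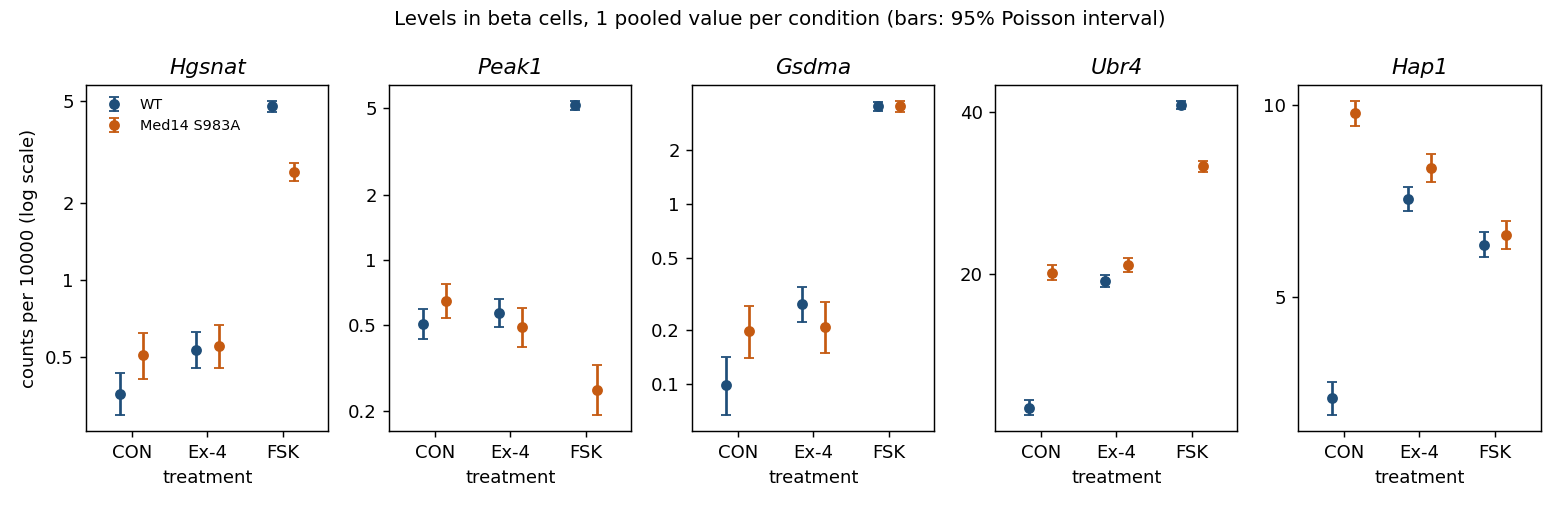
Level of each gene in beta cells (counts per 10000, log scale, each panel with its own range) in CON, Ex-4 and FSK columns of WT (blue) and Med14 S983A (orange), 1 pooled value each with its 95% Poisson interval. Gsdma reached 3.47 and 3.48 after FSK in the 2 genotypes, Peak1 was high only in WT FSK, and WT CON was the lowest Hap1 value.

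Set against all genes, a call needed a difference of log2(CP10K + 1) of at least 1.5-fold among the 10093 genes kept in beta cells. The added 1 shrinks the difference of low genes, so Peak1 in Med14 S983A, at 0.388-fold, stood at -0.40 on this scale and was not called lower. All 5 genes were called higher in WT beta cells, where 1.52% of kept genes were, as their choice required. In Med14 S983A beta cells 3 of 5 (Hgsnat, Gsdma and Ubr4) were called higher, where 5.12% of kept genes were. Gsdma ranked 10th, Hgsnat 85th and Ubr4 458th from the top of that contrast, while Hap1 ranked 298th and Peak1 627th from the bottom. Ubr4 lost its call with column totals that leave out ribosomal RNA linked and mitochondrial genes, which left 2 of 5.

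The choice of the genes can be read in part from the WT ranks. Among the 5047 more highly expressed of these genes (mean not below their median), Hgsnat, Peak1 and Gsdma ranked 3rd, 4th and 5th by the WT FSK difference, at 2.08, 2.03 and 2.02 on the log2(CP10K + 1) scale. Gsdma entered this set only through its FSK columns. In its other beta columns ln(1 + CP10K) was 0.0949 to 0.246, below the median of 0.276. Dgkg and Gnas, named after their values were seen, ranked 1st and 2nd at 2.25 and 2.14 and are not among the 5 genes. Igf1r ranked 6th at 1.86, and Ubr4 ranked 9th at 1.77. Hap1 ranked 125th at 0.66, and entered only because it was among 4 such genes (with Cdk8, Ubr4 and Rn7sk) called higher after both FSK and Ex-4 in WT.

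Of the 153 genes called higher by FSK in WT beta cells, 136 (88.9%) were called higher in Med14 S983A as well, against the 5.12% background. Only 5 of the 153 (3.27%) had a Med14 S983A difference below 0, while 55.5% of all kept genes did. Those were Cdk8, Rn7sk, Scg2, Hap1 and Peak1, with Cdk8, Rn7sk and Scg2 named after their values were seen. Cdk8 encodes a kinase of Mediator, but it was also among the ribosomal RNA linked genes left out of the alternative column totals. The part of ribosomal RNA in its values was not tested. Rn7sk is the noncoding RNA that restrains P-TEFb. Peak1 had the largest WT difference of the 5, at 2.03 against -0.40 in Med14 S983A, followed by Rn7sk at 1.72 against -0.89.

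**Figure D2:**
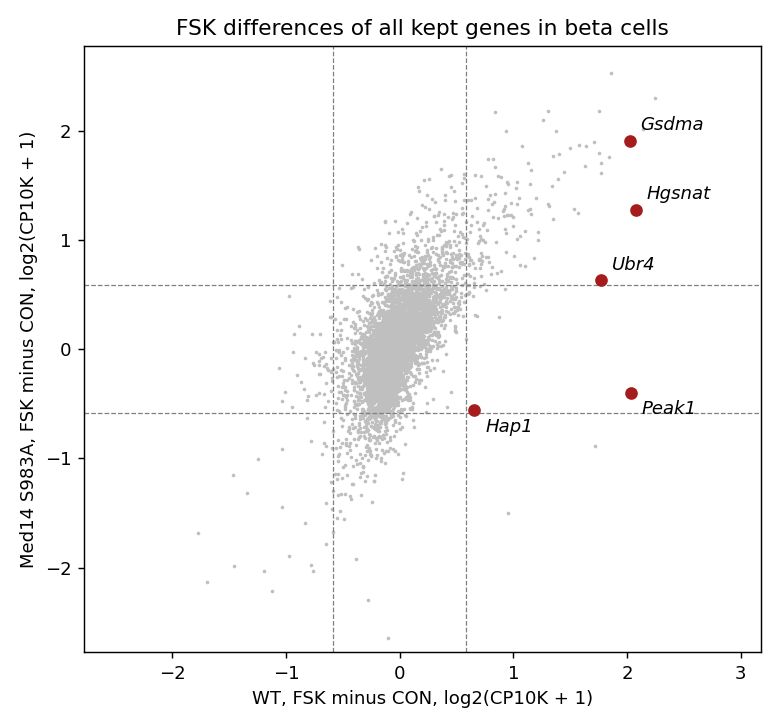
FSK minus CON in WT (horizontal) and Med14 S983A (vertical) for the 10093 genes kept in beta cells (grey), in log2(CP10K + 1), with the 5 genes in red and dashed lines at 1.5-fold. Gsdma and Hgsnat lie high on both axes, Ubr4 just above the Med14 S983A line, and Peak1 and Hap1 below 0 in Med14 S983A.

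Ex-4 had no comparable effect on the genes with the largest FSK responses. In WT beta cells 2 of 5 (Ubr4 and Hap1) were called higher after Ex-4, where 0.941% of kept genes were, and this contrast chose both. Gsdma was 2.80-fold higher after Ex-4 in WT (1.82 to 4.40), from levels too low for a call. Hgsnat was 1.48-fold higher (1.16 to 1.91) as a ratio of CP10K, and was likewise not called on the log2(CP10K + 1) scale. Peak1 differed by 1.12-fold, with an interval that includes 1 (0.897 to 1.41). In Med14 S983A beta cells 0 of 5 were called higher after Ex-4, where 0.0396% of kept genes were.

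In untreated beta cells, Med14 S983A against WT called 2 of 5 (Ubr4 and Hap1) higher, where 1.48% of kept genes were. Ubr4 was 1.78-fold higher (1.70 to 1.86). This contrast, WT Ex-4 and WT FSK all share the WT CON column, so the values stand side by side and are not independent of it. The WT CON column was the lowest of the 6 for Hap1 in 3 cell types, with 1.79 CP10K in alpha cells, where the other 5 were 3.65 to 4.75, and 5.96 in delta cells, where the other 5 were 14.6 to 18.6. Ubr4 was lowest in WT CON in those types too, at 4.67 in alpha and 7.84 in delta cells, although in delta cells its interval overlaps that of WT FSK.

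Peak1 was also higher after FSK in WT alpha and delta cells. Alpha cells gave 0.429 CP10K in WT CON (18 counts) and 8.43 after FSK (227 counts), a 19.6-fold difference (12.1 to 33.7). Delta cells gave 0.469 in WT CON (17 counts) and 4.75 after FSK (203 counts), a 10.1-fold difference (6.17 to 17.7). PP cells went from 0 counts in WT CON to 13 after FSK, a 5.68-fold ratio with CON set to a floor of 3 counts. This ratio leaves out the counting error of the 13 counts. The WT FSK column was the highest of the 6 in alpha, beta and delta cells.

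In Med14 S983A, Peak1 was lower after FSK in alpha cells, at 0.458 CP10K (36 counts) against 0.728 in CON (59 counts), or 0.629-fold (0.404 to 0.968). In delta cells it was 0.507 (32 counts) against 0.883 (50 counts), or 0.574-fold (0.356 to 0.912). PP cells held 4 and 5 counts. The opposite directions of the genotypes were thus present in all 3 endocrine types with enough counts.

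Outside the endocrine cells Peak1 was already high without FSK. Muscle nuclei held 26.9 CP10K in WT CON (69 counts) and 40.3 after FSK (195 counts), and in Med14 S983A 11.4 in CON (70 counts) and 22.9 after FSK (199 counts). The ratio in muscle was 1.5 in WT (1.14 to 2.01) and 2.01 in Med14 S983A (1.52 to 2.68). Endothelial nuclei held 11.3 and 15 in WT and 4.90 and 6.51 in Med14 S983A. Nuclei annotated as neurons in Med14 S983A went from 13 counts to 49 (6.66-fold, 3.56 to 13.4), with neuron markers mostly not highest there. In these types the Med14 S983A columns did not show the lower level after FSK seen in beta, alpha and delta cells. Over the 5 rare types summed, the ratio was 1.68 in WT (1.42 to 1.99) and 2.21 in Med14 S983A (1.85 to 2.65).

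**Figure D3:**
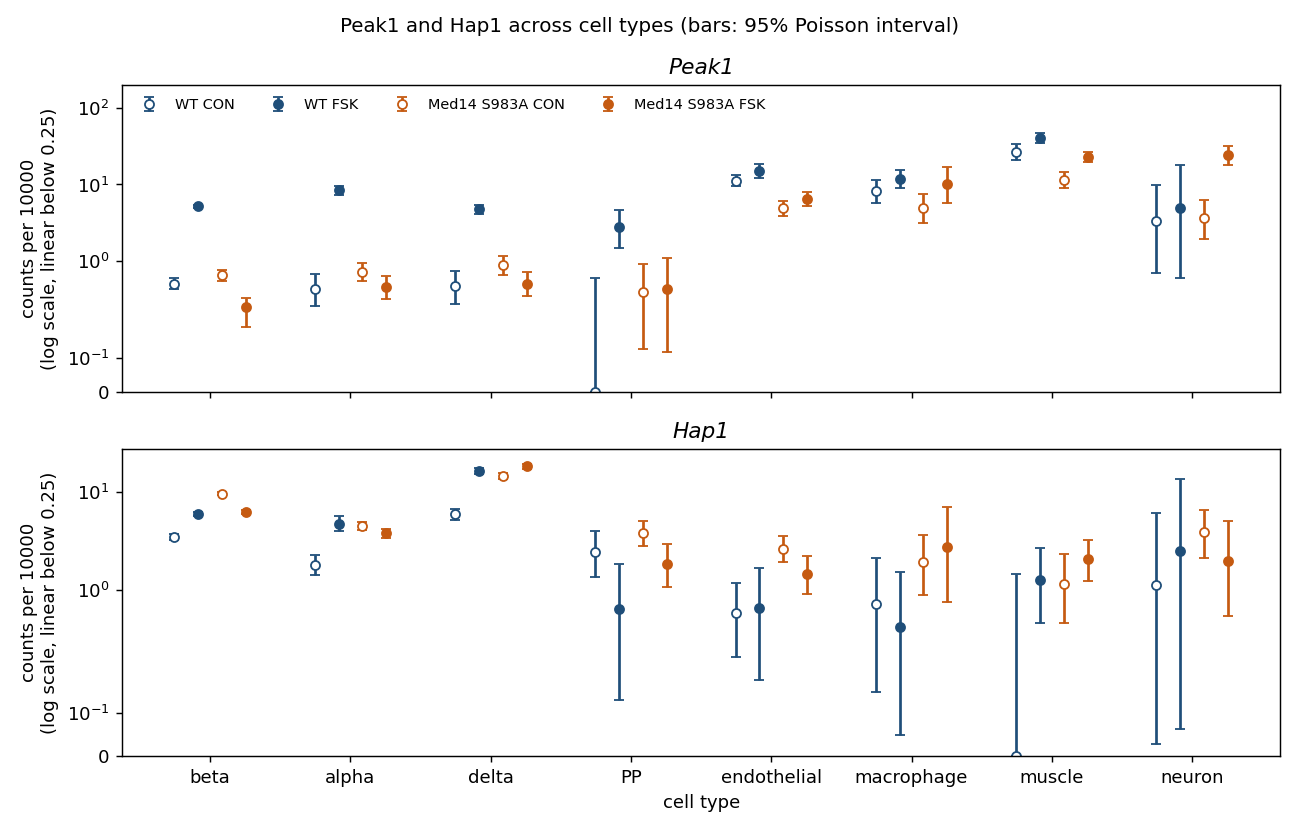
Peak1 (top) and Hap1 (bottom) in 8 cell types (counts per 10000, log scale, linear below 0.25), CON as open and FSK as filled points, WT in blue and Med14 S983A in orange, 1 pooled value each with its 95% Poisson interval. Ductal nuclei are left out because their totals were too low. The WT FSK point of Peak1 stands above the other 3 in beta, alpha, delta and PP cells, whereas in muscle all 4 points are high, and for Hap1 WT CON is lowest in beta, alpha and delta cells.

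Hap1 was highest in delta cells in all 6 conditions. It was 2.66-fold higher after FSK in WT alpha cells (1.98 to 3.58) and 2.79-fold higher in WT delta cells (2.39 to 3.26). In Med14 S983A the ratio was 0.837 in alpha cells (0.715 to 0.978) and 1.27 in delta cells (1.16 to 1.39), so that delta cells did not share the lower level seen in Med14 S983A beta cells. PP cells went the other way, from 15 counts to 3 in WT (0.262-fold, 0.0487 to 0.927) and from 49 counts to 17 in Med14 S983A (0.480-fold, 0.259 to 0.848).

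Ubr4 responded to FSK in alpha cells as it did in beta cells. WT alpha cells held 4.67 CP10K in CON and 16.9 after FSK (3.61-fold, 3.04 to 4.29), and Med14 S983A alpha cells held 9.47 and 14.8 (1.57-fold, 1.43 to 1.72). In delta cells the ratio was 1.23 in WT (1.06 to 1.44), and in Med14 S983A it was 0.959 with an interval that includes 1 (0.872 to 1.06). Ex-4 gave the higher WT delta level, 15.2 against 9.64 after FSK. PP cells gave 2.40-fold in WT (1.32 to 4.54) and 2.09-fold in Med14 S983A (1.54 to 2.86).

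Hgsnat showed no FSK response in alpha or delta cells that could be told from counting error. Alpha cells held 12 counts in WT CON and 6 after FSK (0.778-fold, 0.240 to 2.24), and 24 and 30 in Med14 S983A (1.29-fold, 0.728 to 2.30). Delta cells held 15 and 15 in WT (0.848-fold, 0.386 to 1.86), and 29 and 32 in Med14 S983A (0.990-fold, 0.580 to 1.70). The upper ends of these 4 intervals lie below the ratio in beta cells of the same genotype. Before FSK the level was 58.2% to 114% of that in beta cells, and after FSK it was 4.69% to 19.2%, so that the beta cell columns stood apart after FSK and not before it. In the 5 rare types summed, Hgsnat went from 6 counts to 18 in WT (3.51-fold, 1.33 to 10.8) and from 18 to 36 in Med14 S983A (2.33-fold, 1.29 to 4.35).

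Gsdma was at the edge of detection outside beta cells. WT alpha cells held 1 count in CON and 13 after FSK (20.2-fold, 3.04 to 860), and Med14 S983A alpha cells 4 and 39 (10.1-fold, 3.63 to 38.7). WT delta cells held 1 count and 17 (14.4-fold, 2.26 to 602), and Med14 S983A delta cells 4 and 26 (5.83-fold, 2.02 to 23.0). No alpha or delta column passed the call, since all stayed below 0.5 CP10K, but with a pseudocount of 0.1 times the median in place of the added 1 all 4 contrasts did. Calls were common with that pseudocount. In WT and Med14 S983A they took 1119 and 2037 of 9487 kept alpha genes, and 1464 and 2277 of 9256 kept delta genes. In alpha and delta cells Gsdma passed the filter (0.0821 and 0.0875 CP10K) only through its FSK columns. In the 5 rare types summed, WT went from 0 counts to 11, a 4.29-fold ratio with CON set to a floor of 3 counts. This ratio leaves out the counting error of the 11 counts. Med14 S983A went from 1 count to 14 in these types, a 16.3-fold ratio that rests on 1 count in CON.

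The level of Gsdma after FSK was 11.4% to 14.3% of the beta cell level in the 6 alpha, delta and PP columns, a narrow range. In the same alpha and delta columns, the 12 beta cell markers had median shares of 4.38% to 11.3% of their beta level. Gsdma was above the median marker share in each of these 4 columns, and in WT delta cells the median was 4.38% and Gsdma 11.4%. Ins1, which encodes insulin, was at 15.9% in WT and 12.4% in Med14 S983A alpha cells. In delta cells Ins1 was at 9.32% in WT and 15% in Med14 S983A. Ucn3 was at 0 in 3 of those 4 columns and at 26.6% (2 counts) in Med14 S983A alpha cells. Summed over the list, the markers were at 9.85% to 29.3% of the beta sum in those FSK columns, with Slc30a8 above its beta level in alpha cells. Beta cell markers were thus counted in the same columns, with single shares both below and above that of Gsdma. The part of beta cell RNA in the Gsdma counts there was not tested.

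**Figure D4:**
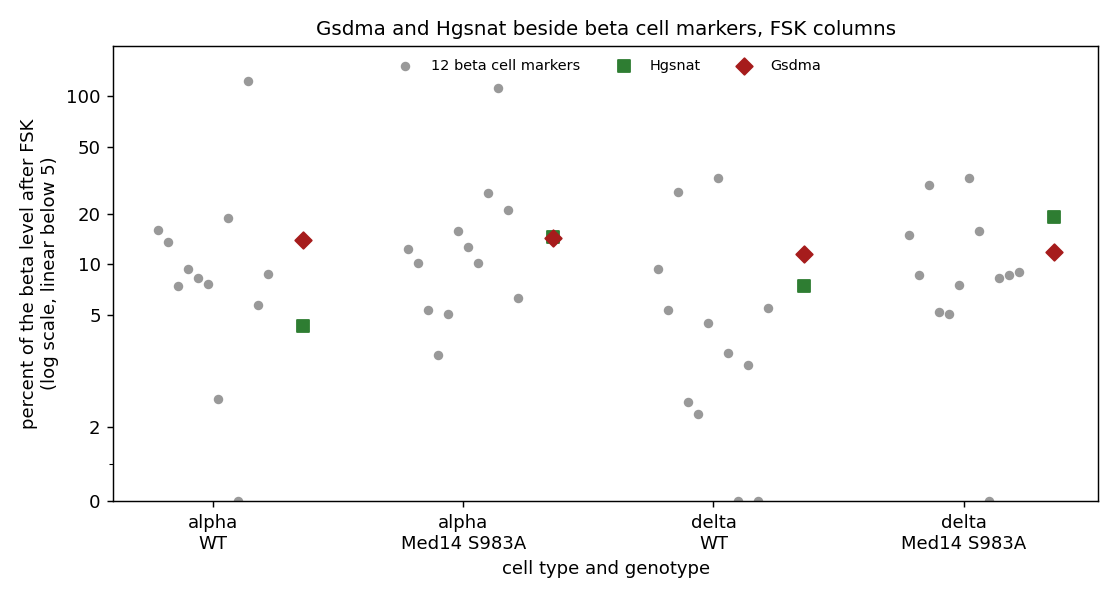
Level after FSK in alpha and delta cells of each genotype as a percentage of the beta cell level in the same condition (log scale, linear below 5), for 12 beta cell markers (grey), Hgsnat (green) and Gsdma (red). Gsdma lies between 11.4% and 14.3% in all 4 columns, among the markers, and Hgsnat between 4.69% and 19.2%.

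By the call across genes, 3 of 5 (Peak1, Ubr4 and Hap1) were higher after FSK in WT alpha cells, where 1.34% of kept genes were, and 2 of 5 (Peak1 and Hap1) in WT delta cells, where 2.45% were. In Med14 S983A, 1 of 5 (Ubr4) was higher in alpha cells, where 3.13% of kept genes were, and 0 of 5 in delta cells, where 5.47% were. The single call in Med14 S983A alpha cells sat at the threshold and was lost with rescaled or centred columns.

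**Figure D5:**
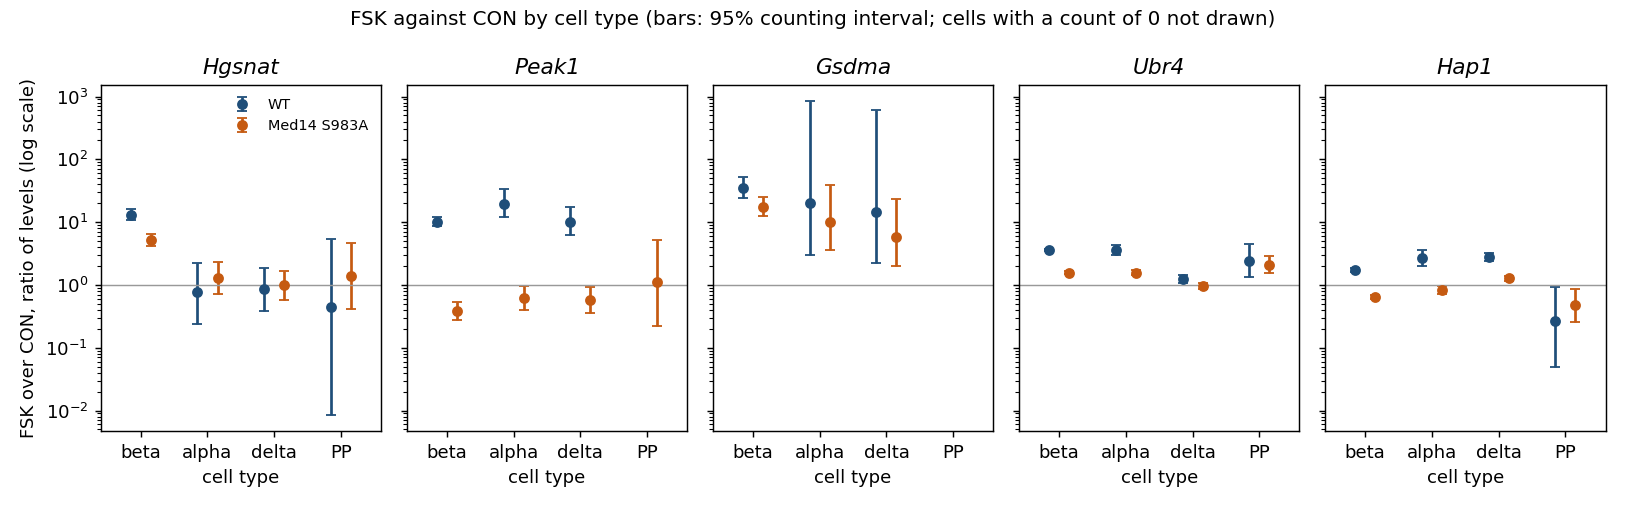
Ratio of the level after FSK to that in CON (log scale) by endocrine cell type in WT (blue) and Med14 S983A (orange), with 95% counting intervals; pairs with a count of 0 are not drawn. The intervals of Hgsnat lie above 1 only in beta cells, and Peak1 is above 1 in WT and below 1 in Med14 S983A in beta, alpha and delta cells.

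Neighbouring genes were examined next. Of 30 flanking genes, 3 on each side of each gene, 18 were kept in beta cells, and 0 were called higher or lower in either genotype. Over all kept genes, 1.52% were called higher and 0.723% lower in WT, and 5.12% and 2.7% in Med14 S983A. Their differences ranged from -0.28 to 0.22 in WT and from -0.43 to 0.24 in Med14 S983A on the log2(CP10K + 1) scale. Star, 125341 bases from Hgsnat, is named after its values were seen: it went from 0.0232 to 0.191 CP10K in WT (8.21-fold, 3.74 to 21.3) and from 0.0312 to 0.174 in Med14 S983A (5.57-fold, 2.35 to 16.1). Thra, a thyroid hormone receptor gene 60575 bases from Gsdma and also named after its values were seen, was 0.204-fold in WT (0.115 to 0.341) and 0.256-fold in Med14 S983A (0.153 to 0.414). Both were below the call because the added 1 shrinks differences at such low levels.

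Genes that work with the 5 genes were described from fixed lists. Over all kept beta cell genes, 1.52% were called higher and 0.723% lower in WT, and 5.12% and 2.7% in Med14 S983A. Lists this short would hold few or no called genes at such shares. Of 5 other kept genes of heparan sulfate breakdown, 0 were called in either direction in either genotype, with a median difference of 0.04 in WT and 0.15 in Med14 S983A, beside -0.05 and -0.02 over all kept genes. Of 4 other kept genes of the gasdermin list, 0 were called. Gsdma2, the paralog next to Gsdma, had 0 counts in all but the Med14 S983A FSK column, with 4, and reads that fit both copies may be split or lost. Of 9 other kept genes of the N-degron list, Ate1, the arginine transferase that creates N-degrons, was lower in Med14 S983A (0.408-fold, 0.328 to 0.507) and 0 others were called.

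Of 12 other kept genes around Peak1 in adhesion and actin signaling, 1 was called, Asap1, a GTPase-activating protein for Arf. It was called higher in both genotypes, where 1.52% of kept genes were in WT and 5.12% in Med14 S983A. Asap1 was 1.86-fold higher in WT (1.70 to 2.03) and 2.6-fold higher in Med14 S983A (2.28 to 2.96). Of 12 other kept genes of the Hap1 transport list, 2 were called lower in WT, where 0.723% of kept genes were, and 4 in Med14 S983A, where 2.7% were, and 0 were called higher. Itpr1, the inositol trisphosphate receptor that Hap1 binds, was 0.373-fold in WT (0.336 to 0.413) and 0.390-fold in Med14 S983A (0.339 to 0.447), whereas Kalrn was 0.559-fold in WT (0.514 to 0.609) and 0.971-fold in Med14 S983A (0.861 to 1.10). Pcm1, a centriolar satellite protein, was 0.661-fold in WT (0.595 to 0.735) and passed the call only in Med14 S983A, at 0.527-fold (0.469 to 0.591).

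Known CREB targets were described in the same way. Of 13 kept targets, 2 were called higher in WT, where 1.52% of kept genes were, and 4 in Med14 S983A, where 5.12% were, and 0 were called lower in either. The median difference was 0.20 in WT and 0.40 in Med14 S983A. Pde10a, a phosphodiesterase that degrades cAMP, was 3.46-fold higher in WT (3.38 to 3.54) and 4.69-fold in Med14 S983A (4.54 to 4.85). Irs2, an insulin receptor substrate, was 2.64-fold higher in WT (2.23 to 3.14) and 2.58-fold in Med14 S983A (2.13 to 3.14), and Nr4a2, a nuclear receptor, 3.46-fold (2.62 to 4.63) and 8.01-fold (5.52 to 12).

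The patterns of the 5 genes over the 18 beta, alpha and delta columns differed from one another. Pearson's r of the deposited log values was 0.93 between Hgsnat and Gsdma, and 0.73 and 0.74 between Ubr4 and these genes. Peak1 had an r of 0.06 to 0.34 with the other 4, and Hap1 one of 0.00 with both Hgsnat and Gsdma. These are descriptions over columns that share cell type and depth.

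Among 5046 other genes, Dnah10 was the most like Gsdma (r = 0.99), followed by Herc4 (0.97) and Dapp1 (0.95). The genes searched were kept by their mean over all beta columns, FSK included, so genes high only after FSK could enter. The r values with Gsdma rest largely on its high beta FSK columns. Dnah10, an axonemal dynein heavy chain, went from 10 to 404 counts in WT beta cells and from 10 to 341 in Med14 S983A. Crybb3 (0.94), Slc25a40 (0.93) and Mctp1 (0.93) were most like Hgsnat. Cyth1 (0.91), Neat1 (0.88) and Tnfrsf23 (0.88) were most like Ubr4, and Myo15b (0.88), Akap11 (0.88) and Tial1 (0.86) most like Hap1. Peak1 had no near match, with Cep128 (0.82), Ugt1a6a (0.75) and Rn7sk (0.67) at the top. Rn7sk alone of these 3 shared its opposite directions in beta cells, at 4.80-fold in WT and 0.384-fold in Med14 S983A.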

How the data were processed

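Nuclei were profiled by combinatorial barcoding. The first round of barcodes assigned 48 wells to 6 conditions, and each of 8 sublibraries holds all 6. The authors aligned reads to mm39, removed nuclei with extreme counts or mitochondrial share, normalized and integrated them, and assigned cell types. Values in the deposited table are natural logs that the authors computed, each the ln of 1 plus the counts per 10000 of the column total. Whether their counts were corrected before pooling is not stated, and aggregates were gated out by pulse width at the sort, with no doublet caller named in the sources used here.

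Column totals were recovered as the number that makes every value a whole count, and 100% of values lay within 0.001 of one (largest distance 6.39e-05). Levels have exact Poisson intervals and ratios of levels exact conditional binomial intervals (95%), with a floor of 3 counts for a count of 0. Genes were kept at or above the 40th percentile of the mean over 6 conditions in a cell type, and called at 1.5-fold of log2(CP10K + 1). No test, SD or adjusted p could be computed. The members and lists were chosen with earlier results of these data known.

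The genes named were the 5 members, of each list at most 3 genes past 1.5-fold, flanking genes past 1.5-fold (3 on each side) and the 3 genes most like each member. Others are stated as named after their values were seen. Alternatives were other scales, a pseudocount of 0.1 times the median, a 2-fold threshold, no filter or the 75th percentile, centring, and totals without 15 ribosomal RNA linked and mitochondrial genes. Positions and windows came from GRCm39 with GENCODE M39, where 16531 genes of the table matched once by name. Figures were drawn with matplotlib 3.10.9, and computations used scipy 1.17.1, pandas 2.3.3 and numpy 2.4.6 under Python 3.11.15.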

Additional observations from a re-analysis of the deposited data

Results flagged for a closer look

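The direction of the FSK response of Peak1 and Hap1 differed between genotypes or between cell types, with counting intervals that exclude no change on both sides. With 1 pool per condition the difference itself was not tested between groups. The values are log2 ratios of FSK against CON.

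Peak1 was at 3.35 in WT beta cells and -1.37 in Med14 S983A beta cells. It was at 4.29 in WT and -0.67 in Med14 S983A alpha cells, and at 3.34 in WT and -0.80 in Med14 S983A delta cells. Within Med14 S983A, the direction also differed between cell types, with 1.06 in macrophages, 1.01 in muscle nuclei and 2.74 in nuclei annotated as neurons.

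Hap1 was at 0.80 in WT beta cells and -0.63 in Med14 S983A beta cells, and at 1.41 and -0.26 in alpha cells. In WT it was 1.48 in delta cells but -1.93 in PP cells, the latter on 3 and 15 counts. In Med14 S983A it was 0.35 in delta cells, -1.06 in PP cells and -0.86 in endothelial nuclei. The untreated WT column was the lowest of the 6 for Hap1 in beta, alpha and delta cells, and its part in the WT ratios was not tested.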

How the results depend on the processing

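No member's ratio changed direction in beta, alpha or delta cells under any alternative that was run, and no p-value exists to be lost. Of 40 beta cell values under alternatives, 24 moved by less than their counting interval. The log2 ratios that moved in WT beta cells were, with the median of kept genes set to 0 (a shift of -0.31), 4.03 for Hgsnat, 3.66 for Peak1, 2.18 for Ubr4 and 1.115 for Hap1. On the log2(CP10K + 1) scale they were 2.08, 2.03, 2.02 for Gsdma, 1.77 and 0.66. In Med14 S983A they were 1.27 for Hgsnat, -0.40 for Peak1 and 1.90 for Gsdma on that scale, 0.51 for Ubr4 and -0.78 for Hap1 with rescaled totals, and 0.79 and -0.49 when centred.

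With a 2-fold threshold the kept genes called higher after FSK numbered 52 in WT beta, 164 in Med14 S983A beta, 35 in WT alpha, 91 in Med14 S983A alpha, 66 in WT delta and 158 in Med14 S983A delta cells. With a pseudocount of 0.1 times the median they numbered 629, 2034, 1119, 2037, 1464 and 2277. Members called higher in Med14 S983A alpha cells went from 1 to 0 at 2-fold, with rescaled totals and when centred. Hap1 lost its call in WT beta cells at 2-fold (5 to 4), and Ubr4 in Med14 S983A beta cells at 2-fold and with rescaled totals (3 to 2). With the pseudocount Gsdma gained a call in WT alpha (3 to 4), Med14 S983A alpha (1 to 2), WT delta (2 to 3) and Med14 S983A delta cells (0 to 1). No paired analysis was possible because no condition has more than 1 pool. Depth limits the values for Gsdma outside beta cells, which rest on at most 39 counts in alpha, delta and PP cells, and all intervals leave out differences between mice.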
